A study of Mus musculus with 34 samples.

Results

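Spinal cord taken 1 day after injury was compared between mice lacking the truncated neurotrophin receptor trkB.T1 (KO) and wild-type (WT) mice, on 4 KO and 5 WT arrays out of the 34 arrays of the series. The arrays were chosen by their labels, and each carried RNA from spinal cord tissue of the mouse. The other groups were KO and WT cord after sham surgery, in which the cord itself was not injured (4 arrays each), 3 days after injury (5 KO and 4 WT arrays) and 7 days after it (4 KO and 4 WT arrays). The labels used here give no strain, age or sex and do not say that each array came from a separate animal, so p-values measure the spread between these samples, which may be partly technical. The comparison asks how the transcript levels of injured cord depend on trkB.T1 early after the lesion.

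TrkB.T1 is a splice form of the receptor for brain-derived neurotrophic factor that lacks the kinase domain of full-length trkB, and it is the main trkB form of astrocytes. After a spinal lesion, microglia, astrocytes, precursor cells and vascular cells re-enter the cell cycle, and mature neurons can also switch on cell cycle genes without dividing. In a dividing cell, D-type cyclins and E2F factors switch on the genes of DNA replication, and a later program, governed by complexes built on MuvB, switches on the genes of mitosis.

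Values are log2 signals, so that a difference of 1 is a factor of 2, and values under 4 lie near the background of the array. Where a gene has several probe sets, the one of highest mean over all arrays was taken, and 11993 genes above 4 on at least 4 arrays were tested. The 9 arrays had medians between 4.19 and 4.28. Mean signals of neuron genes (10.96 to 11.27 in KO, 10.61 to 11.19 in WT), myelin genes (11.66 to 11.79 in KO, 11.68 to 11.89 in WT) and astrocyte genes (10.76 to 10.91 in KO, 10.65 to 10.88 in WT) were high in both groups. The skeletal muscle list averaged 4.28, 6.21, 3.56 and 4.19 on the KO arrays, against 4.63, 7.71, 3.51, 3.45 and 4.23 on the WT arrays, so that replicate 2 of each genotype carried the most muscle transcript. A neutrophil mean of 8.14 on WT replicate 5 stood above the other 8 arrays, which lay between 5.96 and 6.83. These whole-tissue values cannot tell fewer cells of a type from less RNA per cell.

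The targeted gene followed the labels at day 1. Ntrk2, which encodes both trkB forms, has 8 probe sets on the array. The first gave 2.83 on each of the 4 KO arrays, against 9.03, 9.05, 9.35, 9.03 and 9.24 in WT. The second gave 3.84, 4.76, 3.99 and 3.79 in KO, against 10.31, 10.01, 10.16, 10.20 and 10.36 in WT. Both thus separated the genotypes completely. The first was under 4 on every KO array and at least 35.2-fold lower (limma adjusted p = 2.86e-07). The second was under 4 on 3 KO arrays, and its difference was -6.11 ± 0.63 as deposited (adjusted p = 3.6e-07) and -6.01 with those values set to 4. Throughout, ± is an SE unless SD is stated. The means come from 4 KO and 5 WT arrays, while the spread is pooled over all groups of the series. For the second probe set the SDs at day 1 were 0.45 in KO and 0.14 in WT. Its pooled spread also includes a KO sham library whose Ntrk2 signal goes against its label. The probe set with the highest signal read 10.44, 10.81, 10.85 and 10.89 in KO, against 10.09, 10.17, 10.44, 9.57 and 10.42 in WT, a difference of 0.61 ± 0.20 short of the threshold (adjusted p = 0.224 over all probe sets). Which transcript each probe set reads is not given in the sources used here.

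Cell cycle genes made up most of the genes that were lower in KO cord. Of the 11993 genes 103 passed at an adjusted p of 0.05 (0.859%), with 80 lower (0.667%) and 23 higher (0.192%) in KO cord. The cell cycle lists held 51 of the 80 lower genes and none of the 23 higher ones. These lists have 246 tested genes, of which 20.7% were called lower, 201 had a lower mean in KO and the median difference was -0.25, against a median of 0.02 over all tested genes. With values under 4 set to 4, differences of at least 2-fold were found for 28 lower genes, 23 of them in the cell cycle lists, and for 4 higher genes. The KO and WT arrays did not overlap for 90 of the 103 genes, where 601 of all tested genes (5.01%) had no overlap. Because the 103 were picked by their difference on these arrays, the 90 describe them and are no separate support. An unadjusted p under 0.05 was reached by 1163 genes (9.7%). Of the 80 lower genes, 27 were under 4 on at least 1 KO array and 16 on every KO array, so that the sizes of their differences as deposited rest on signals near background. For the 16, any fold is a lower bound, computed from the limit of 4 in place of smaller values, and is written "at least". The adjusted p beside such a fold belongs to the values as deposited and does not test the fold. Among the 11 that were under 4 on some KO arrays, setting such values to 4 gave differences of -3.16 for Mki67, -2.81 for Top2a, -2.51 for Pbk, -2.02 for Birc5, -1.97 for Ccna2, -2.17 for Cdk1, -1.73 for Cdca8, -1.28 for Ect2, -1.21 for Cdc6, -1.21 for Wif1 and -0.70 for Prc1.

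The number of genes past the threshold depended on single arrays, while all 103 differences kept their direction. For the 90 genes without overlap, leaving out 1 array cannot reverse the direction, so this is no separate support. The number of passing genes was 49 without KO replicate 4, 55 without WT replicate 4 and 63 without KO replicate 3. It was between 75 and 131 without any 1 of the others. Lower genes numbered 39 without WT replicate 4, 40 without KO replicate 4 and 44 without KO replicate 3, of which 28, 30 and 33 were in the cell cycle lists. Higher genes numbered 9 without KO replicate 4, 12 without WT replicate 3, 15 without WT replicate 2 and 39 without WT replicate 5. A fit of the 9 arrays alone called 14 higher and 51 lower genes. Of these 65 genes 47 were among the 103, and the adjusted p of the 103 reached 0.253 in that fit. Arrays weighted by their quality gave 119 and 191, and leaving out both replicates 2, the arrays of most muscle transcript, gave 12 and 46. In each of the 9 fits 39 of the 103 genes passed, 26 of them from the cell cycle lists. The other 13 were Cd59a, Dapk1, Npas2, Cmpk2, Ess2 and Arhgap39 among the higher genes, and Atad2, D17H6S56E-5, Fam102b, Nedd4, Ptgr1, Shcbp1 and Trim59 among the lower ones.

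Mki67, the nuclear antigen Ki-67 of cycling cells, had the lowest difference of all tested genes. It read 4.12, 3.66, 4.35 and 2.87 in KO, against 6.96, 6.75, 6.81, 7.69 and 8.20 in WT, a fall of 3.53 ± 0.45 on the log2 scale (adjusted p = 1.34e-05). Top2a, the topoisomerase that untangles replicated chromosomes, read 4.25, 4.61, 4.47 and 3.69 in KO, against 7.35, 6.99, 6.67, 7.76 and 6.91 in WT, and fell by 2.88 ± 0.27 (adjusted p = 9.92e-08). In both genes every KO array lay more than 2 units below every WT array. Pclaf, which binds the replication clamp, read 6.06, 6.23, 6.28 and 5.21 in KO, against 8.15, 7.95, 7.79, 8.57 and 7.62 in WT, 4.21-fold lower (adjusted p = 2.04e-05). The methyltransferase Ezh2 fell by 0.51 ± 0.12 (adjusted p = 0.0294). These 4 were the genes of the 15 tested in the list of chromatin and proliferation genes that passed, and the list had a median of -0.27.

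**Figure D1:**
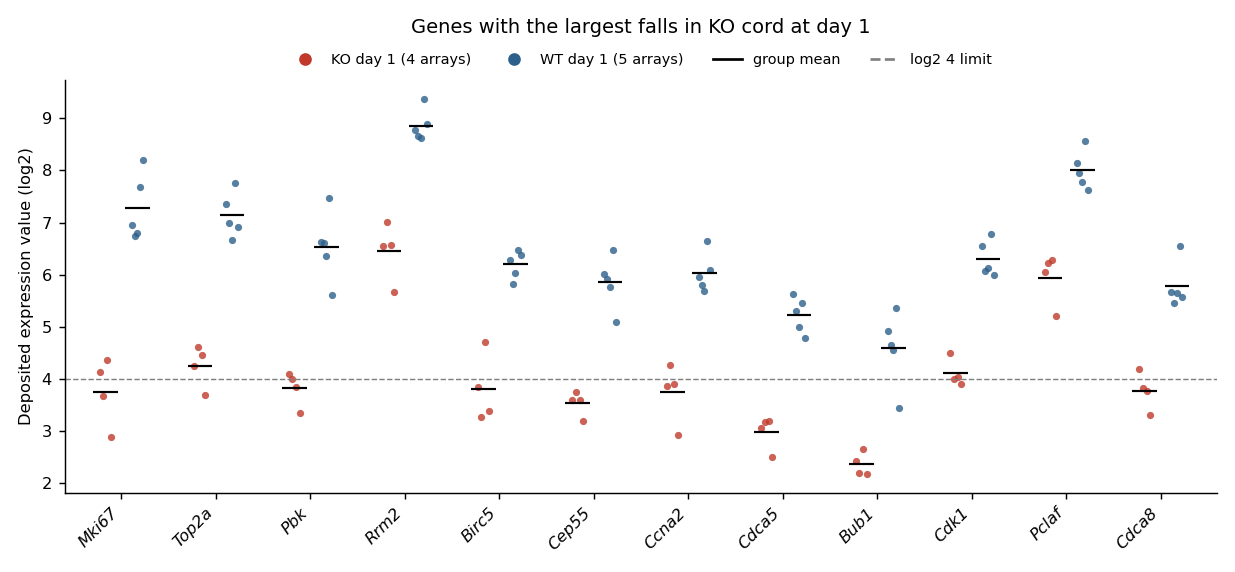
Deposited log2 values of the 12 genes with the largest falls whose arrays do not overlap, for the 4 KO arrays (red, left) and 5 WT arrays (blue, right) at day 1, with group means as bars and the background limit of 4 as a dashed line. Every KO point lies below every WT point of its gene, and Cep55, Cdca5 and Bub1 are under 4 on all 4 KO arrays.

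Among the lower genes were 3 cyclins, the kinase Cdk1 and both of its small partner subunits. Ccnd1, the D-type cyclin of G1 entry, read 11.24, 10.94, 10.93 and 11.01 in KO, against 11.78, 11.61, 11.42, 11.80 and 11.17 in WT. The groups overlapped by 1 WT array, and the fall of 0.53 ± 0.13 (adjusted p = 0.037) passed in 3 of the 9 fits with an array left out, with adjusted p = 0.14 without WT replicate 4. Ccne2, the cyclin of S phase entry, read 6.09, 6.11, 6.06 and 6.19 in KO, against 7.16, 7.27, 7.36, 7.54 and 7.08 in WT, 2.25-fold lower with no overlap (adjusted p = 0.000134). Ccna2, the cyclin of S and G2 phase, read 3.86, 4.27, 3.89 and 2.92 in KO, against 5.96, 5.80, 5.68, 6.64 and 6.09 in WT, a fall of 2.30 ± 0.23 (adjusted p = 2.55e-07). Cdk1, the kinase that starts mitosis, read 4.50, 3.99, 4.04 and 3.91 in KO, against 6.55, 6.07, 6.14, 6.77 and 6.0 in WT, and fell by 2.20 ± 0.20 (adjusted p = 9.92e-08). Its small partner subunits Cks2 (-0.84 ± 0.15, adjusted p = 0.00291) and Cks1b (-0.72 ± 0.14, adjusted p = 0.00786) fell with it. In all, 3 of 7 tested cyclins and 3 of 13 tested kinases and activators passed, with medians of -0.58 and -0.15. Ccnd2 (-0.58, adjusted p = 0.0668) and Ccnb2 (-0.71, adjusted p = 0.168) did not pass.

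Sequences upstream of Cdk1, Top2a and Cdca5, which have the 3 smallest adjusted p-values of the comparison, are shown because genes of the mitotic program share short promoter elements. They are the 250 bases before the transcription start on the gene's own strand, credited to RefSeq on build GRCm38.p6. Capitals mark matches on either strand to the cell cycle homology region (TTTGAA, or TTCAAA on the other strand) and to the CCAAT box (CCAAT, or ATTGG).
Cdk1 chr10:69352913-69353162, minus strand: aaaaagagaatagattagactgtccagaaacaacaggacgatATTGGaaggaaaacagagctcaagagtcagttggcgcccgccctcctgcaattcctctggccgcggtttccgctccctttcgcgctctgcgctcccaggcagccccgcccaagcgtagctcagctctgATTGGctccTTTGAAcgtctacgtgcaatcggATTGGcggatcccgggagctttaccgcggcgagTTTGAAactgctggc
Top2a chr11:99024190-99024439, minus strand: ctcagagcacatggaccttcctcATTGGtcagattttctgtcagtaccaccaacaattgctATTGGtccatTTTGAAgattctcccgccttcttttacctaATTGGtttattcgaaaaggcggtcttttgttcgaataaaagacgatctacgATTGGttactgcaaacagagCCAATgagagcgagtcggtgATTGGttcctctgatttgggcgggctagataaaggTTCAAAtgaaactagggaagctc
Cdca5 chr19:6084847-6085096, plus strand: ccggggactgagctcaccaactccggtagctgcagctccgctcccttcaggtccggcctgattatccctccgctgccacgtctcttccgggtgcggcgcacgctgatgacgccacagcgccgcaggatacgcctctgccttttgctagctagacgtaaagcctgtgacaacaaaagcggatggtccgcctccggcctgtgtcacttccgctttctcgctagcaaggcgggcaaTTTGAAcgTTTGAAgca
The Cdk1 window holds 2 matches to the homology region, which end 66 and 10 bases before the start, and 3 CCAAT boxes on the other strand. The Top2a window holds 2 and 6, and the Cdca5 window has its 2 homology region matches within 17 bases of the start and no CCAAT box. Among the lower cell cycle genes 43 of 51 had an entry, and 11 of these windows (25.6%) held the homology region and 26 (60.5%) a CCAAT box. Among the cell cycle genes that did not pass the shares were 23.6% and 60.0% of 165, and among all 9688 tested genes with an entry 12.6% and 40.3%. An E2F match (TTTCCCGC or TTTGGCGC, either strand) was found in 6 of the 43 windows (14%), in 9.09% of the 165 and in 2.82% of the 9688. For the first pair of elements the share among the lower genes was thus close to that among the cell cycle genes that did not pass. A match of letters does not show binding.

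Genes of origin licensing and nucleotide supply were among those lower in KO cord, while no tested DNA polymerase or clamp gene passed. Cdc6, which loads the helicase at origins, fell by 1.58 ± 0.28 (adjusted p = 0.00219). Mcm5, a subunit of that helicase, read 8.56, 8.52, 8.21 and 7.76 in KO, against 9.43, 9.26, 9.11, 9.56 and 8.99 in WT, a fall of 1.01 ± 0.22 with no overlap (adjusted p = 0.0159). The subunits Mcm6 (-0.86 ± 0.20) and Mcm7 (-0.59 ± 0.13), the activator Dbf4 (-0.89 ± 0.20) and Gmnn (-0.54 ± 0.12), which blocks a repeat of licensing, passed as well. These 6 were all the passing genes among 21 tested for origin licensing, where the median was -0.54. Rrm2, the regulated subunit of ribonucleotide reductase, read 6.54, 7.01, 6.58 and 5.67 in KO, against 8.77, 8.66, 8.62, 9.38 and 8.90 in WT, 5.33-fold lower (adjusted p = 1.76e-06). Its partner subunit Rrm1 fell by 0.58 ± 0.10 (adjusted p = 0.0015) and the dUTP hydrolase Dut by 0.39 ± 0.09 (adjusted p = 0.0383), and the other 12 of 15 nucleotide supply genes did not pass. At the replication fork 2 of 29 tested genes passed, namely Uhrf1 (-1.34 ± 0.30, adjusted p = 0.0243), which maintains DNA methylation, and the remodeller Hells (-1.07 ± 0.20, adjusted p = 0.00422). The means of 28 of these 29 genes were lower in KO (median -0.36), among them Pcna, the clamp (-0.32, adjusted p = 0.122). Of 10 DNA damage genes Topbp1 passed (-0.44 ± 0.09, adjusted p = 0.0122).

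Lower mitotic genes included kinases, kinetochore proteins and proteins of the cut between daughter cells. Among mitotic kinases and spindle checkpoint genes 10 of 21 were lower and the median was -0.66, the highest count of the 14 cell cycle lists. Pbk, a mitotic kinase, read 4.09, 3.99, 3.85 and 3.34 in KO, against 6.62, 6.61, 6.35, 7.48 and 5.60 in WT, a fall of 2.72 ± 0.30 (adjusted p = 1.49e-06). Cdca5, which protects sister chromatid cohesion, read 3.04, 3.17, 3.19 and 2.49 in KO, against 5.63, 5.30, 4.98, 5.45 and 4.78 in WT, at least 2.34-fold lower (adjusted p = 1.18e-07). Both had no overlap, and Cdca5 lay under the background limit on all KO arrays. Birc5 (-2.40 ± 0.28), Cdca8 (-2.01 ± 0.25) and Incenp (-0.68 ± 0.13), which share a complex with the Aurora B kinase, all passed. Bub1, a checkpoint kinase, read 2.42, 2.19, 2.64 and 2.17 in KO, against 4.92, 4.65, 4.56, 5.35 and 3.44 in WT, at least 1.62-fold lower. Its adjusted p was 1.15e-05 with the values as deposited and 0.223 with values under 4 set to 4. The checkpoint protein Mad2l1 (-1.0 ± 0.15, adjusted p = 0.000123) and the centriole kinase Plk4 (-0.66 ± 0.14, adjusted p = 0.0119) also passed.

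Of 22 kinetochore genes 5 were lower, with a median of -0.43. Spc25, which binds spindle fibres, was at least 2.04-fold lower (adjusted p = 0.000134), and Cenpk fell by 1.26 ± 0.22 (adjusted p = 0.00205). Of 27 spindle and cytokinesis genes 6 were lower, with a median of -0.34. Cep55, a protein of the final cut between daughter cells, read 3.59, 3.74, 3.58 and 3.19 in KO, against 6.01, 5.91, 5.76, 6.48 and 5.09 in WT, at least 3.61-fold lower with no overlap (adjusted p = 1.32e-07). Ect2, which positions the cleavage furrow, fell by 1.48 ± 0.21 (adjusted p = 8.5e-05). Kif23, a kinesin of the same step, passed as deposited but was under 4 on all 9 arrays and has no measured fold. Cohesin and condensin genes passed in 4 of 18 cases, with the condensin subunits Smc4 (-0.64 ± 0.15, adjusted p = 0.0274) and Smc2 (-0.62 ± 0.14, adjusted p = 0.0303). In the anaphase promoting complex list, 2 of 16 passed, the ubiquitin conjugating enzyme Ube2c (adjusted p = 0.0293) and the inhibitor Fbxo5 (-1.19 ± 0.23, adjusted p = 0.00727), and the list's median was -0.01.

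Brakes of the cycle were not higher as a group. Of 17 CDK inhibitor and p53 target genes 1 passed, and it was lower, namely Cdkn2c (-0.83 ± 0.19, adjusted p = 0.0273). Its list had a median of 0.07, and Cdkn1a, the p21 inhibitor, differed by 0.86 ± 0.28 (adjusted p = 0.209). Among 15 E2F, retinoblastoma and DREAM genes Rbl1, which encodes the pocket protein p107, fell by 1.10 ± 0.22 (adjusted p = 0.00727), and the list had a median of -0.23. The cell cycle lists together averaged 6.43, 6.46, 6.39 and 6.34 on the KO arrays, against 6.90, 6.81, 6.75, 7.07 and 6.78 on the WT arrays, with every KO array lower.

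**Figure D2:**
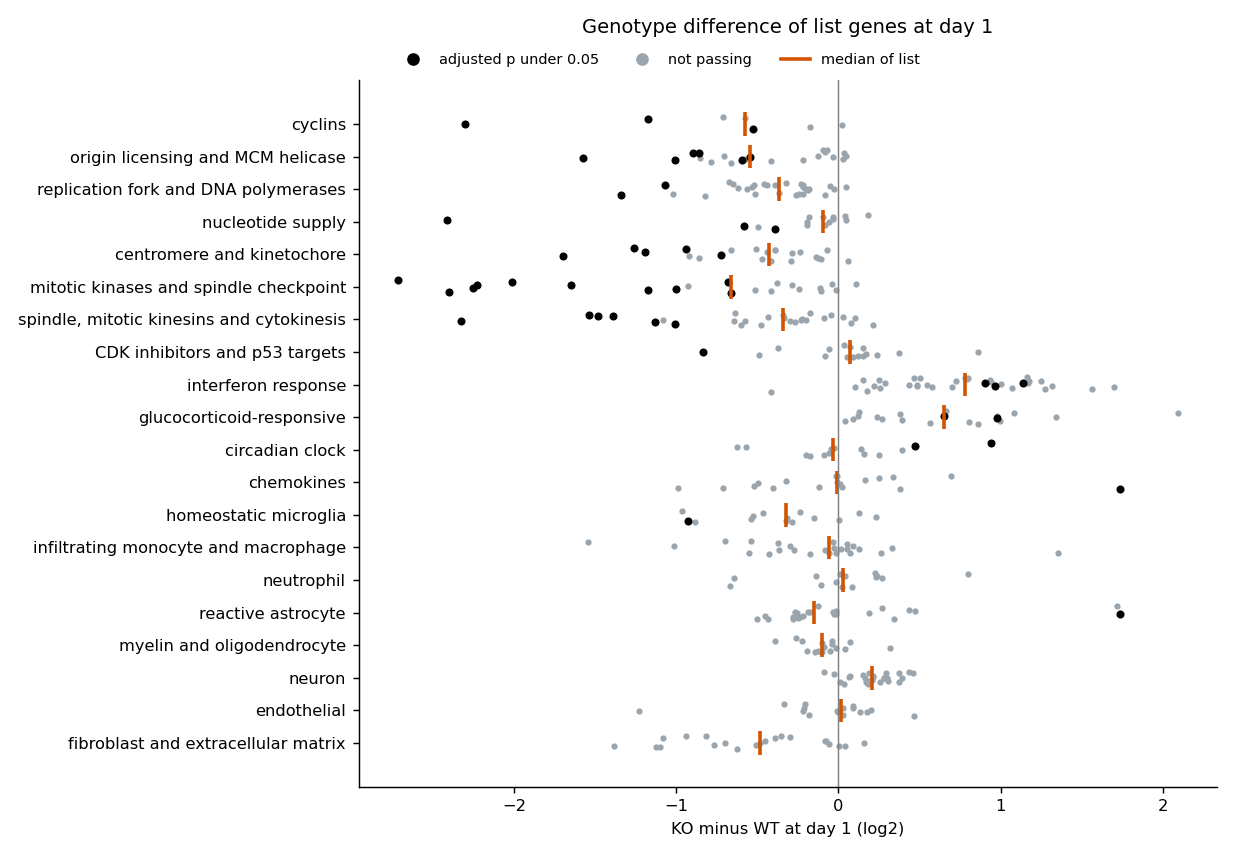
KO minus WT differences in log2 at day 1 for every tested gene of 20 lists, with genes past the adjusted p threshold in black, the others in grey and list medians as orange bars. Black points lie left of 0 in the cell cycle lists and right of 0 in the interferon, glucocorticoid and clock lists.

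Outside the cell cycle lists 29 genes were lower, and 6 of these are also known for roles in cell division or in proliferating cells: Shcbp1, Fignl1, Zwilch, Atad2, Diaph3 and Tcf19. Shcbp1, a protein of the midbody, read 5.40, 4.73, 4.45 and 4.80 in KO, against 6.80, 6.26, 6.34, 7.26 and 5.95 in WT, a fall of 1.68 ± 0.23 with no overlap (adjusted p = 4.7e-05). The other 23 had no common list. Wif1, a secreted inhibitor of Wnt proteins, read 4.42, 3.59, 2.25 and 3.59 in KO, against 4.77, 5.82, 5.90, 4.83 and 5.23 in WT, a difference of -1.85 ± 0.46 (adjusted p = 0.0431). Its lowest value was on KO replicate 3, without which its adjusted p was 0.244, and it passed in 1 of the 9 fits. Ptgr1, a reductase that inactivates prostaglandins and leukotriene B4, read 5.46, 5.38, 5.32 and 5.45 in KO, against 6.63, 6.72, 6.08, 6.91 and 6.20 in WT, 2.15-fold lower with no overlap (adjusted p = 0.00893). The KO arrays hardly differed among themselves. Enpp3, an enzyme that cuts extracellular nucleotides, and Mamdc2 were under 4 on all KO arrays and at least 1.39-fold and 1.31-fold lower (adjusted p = 0.0161 and 0.00949 for the values as deposited).

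Lower genes at high signal had small differences. Lgals1, the lectin galectin-1, read 12.84, 12.61, 12.60 and 12.50 in KO, against 13.46, 13.25, 13.08, 13.51 and 12.83 in WT, 1.50-fold lower with 1 overlapping WT array (adjusted p = 0.0222). Hif1a, the hypoxia-inducible factor, read 12.22, 12.16, 12.02 and 12.17 in KO, against 12.31, 12.50, 12.35, 12.55 and 12.35 in WT, 1.21-fold lower with no overlap (adjusted p = 0.0311). Nedd4, a ubiquitin ligase, read 10.88, 10.92, 10.98 and 10.84 in KO, against 11.50, 11.31, 11.31, 11.13 and 11.14 in WT, a fall of 0.37 ± 0.06 (adjusted p = 0.00144). Of the 20 tested glycolysis and hypoxia genes Hif1a was lower, Ddit4 was higher and 18 did not pass, with a median of 0.04. Npl, a lyase of sialic acid (-0.69 ± 0.14, adjusted p = 0.0122), Ndp, the Wnt receptor ligand norrin (-0.54 ± 0.13, adjusted p = 0.0334), and Oat, ornithine aminotransferase (-0.34 ± 0.08, adjusted p = 0.037), were lower too. Ndp was not at high signal, with means of 4.51 in KO and 5.05 in WT, close to the background limit of 4. With 1 array left out, Nedd4 passed in all 9 fits, Npl in 8, Lgals1 and Hif1a in 4 each, and Ndp and Oat in 2 each.

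Among microglial genes Fcrls, an Fc receptor-like gene of resident microglia, read 8.26, 8.14, 7.91 and 7.69 in KO, against 9.18, 8.87, 8.79, 9.26 and 8.53 in WT, a fall of 0.93 ± 0.21 with no overlap (adjusted p = 0.024). It passed in 5 of the 9 fits, with adjusted p = 0.138 without KO replicate 4. It was the 1 of 14 homeostatic microglia genes that passed, while 11 had a lower mean and the median was -0.32, with Gpr34 at -0.97 (adjusted p = 0.0751) and the purine receptor P2ry12 at -0.88 (adjusted p = 0.253). The list averaged 7.12, 6.99, 6.81 and 6.74 in KO, against 7.48, 7.29, 7.13, 7.45 and 7.11 in WT, so that KO replicate 1 reached into the WT range. The part of this shift in the cell cycle differences was not tested.

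Interferon-induced genes had higher means in KO cord, unevenly between arrays. Of the 35 tested genes of the interferon list 34 had a higher mean in KO, as did 55.1% of all tested genes. The list's median difference at day 1 was 0.78, against -0.05 after sham surgery, 0.32 at day 3 and 0.34 at day 7. None of its genes passed at those other times, and 3 passed at day 1. Another 4 of the 23 higher genes, chosen after their values were seen, are known to be interferon-induced: Cxcl10, Cd274, Samd9l and Znfx1. Cxcl10, the chemokine that draws T cells, read 10.95, 8.29, 8.43 and 9.16 in KO, against 7.98, 7.89, 6.83, 7.68 and 6.99 in WT, 3.33-fold higher (adjusted p = 0.0429). All KO arrays were higher, and KO replicate 1 stood well above the others. Without it the difference was 1.16 (adjusted p = 0.196), and the call held in 2 of 9 fits. Samd9l read 8.92, 7.72, 7.51 and 8.42 in KO, against 7.25, 6.97, 6.77, 6.11 and 7.11 in WT, 2.46-fold higher with no overlap (adjusted p = 0.0258). Igtp, an immunity-related GTPase, read 10.50, 10.03, 9.71 and 10.47 in KO, against 9.44, 8.80, 8.22, 9.39 and 9.32 in WT, 2.20-fold higher with no overlap (adjusted p = 0.0294). Cd274, the checkpoint ligand PD-L1, read 7.16, 5.36, 5.10 and 5.99 in KO, against 5.32, 4.60, 4.44, 4.75 and 4.42 in WT, 2.29-fold higher with WT replicate 1 inside the KO range (adjusted p = 0.0206). With 1 array left out, Samd9l passed in 5 of the 9 fits, Igtp in 4 and Cd274 in 6. Without KO replicate 4 the adjusted p was 0.133 for Samd9l and 0.148 for Igtp.

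Cmpk2 and Stat2 were the 2 other passing list members. Cmpk2, a mitochondrial nucleotide kinase, read 9.23, 8.32, 8.71 and 8.97 in KO, against 7.73, 7.85, 7.88, 7.71 and 8.04 in WT, 1.95-fold higher (adjusted p = 0.00346), and passed in all 9 fits. Stat2, a transcription factor of the type I interferon receptor, read 5.19, 4.23, 4.58 and 5.09 in KO, against 4.23, 3.47, 3.76, 4.13 and 3.75 in WT, 1.87-fold higher (adjusted p = 0.0102), and 1.63-fold with the values of the 3 WT arrays under 4 set to 4. It passed in 7 of the 9 fits and not without KO replicate 1 or KO replicate 4. Gbp3 (0.94 ± 0.24, adjusted p = 0.0502), Gbp2 (1.17 ± 0.32, adjusted p = 0.0876) and Usp18 (1.70 ± 0.61, adjusted p = 0.27) did not pass. The list averaged 8.66, 7.51, 7.53 and 8.15 in KO, against 7.47, 7.18, 6.72, 7.51 and 7.23 in WT. Replicates 1 and 4 of KO were thus the high arrays, and without either 1 list gene passed. The list count was also 1 in a fit of the 9 day 1 arrays alone, 5 with array weights and 6 with the mean of caudal Hox genes as a covariate. None of the 12 MHC genes and none of 25 cytokine genes passed (medians of 0.04 and 0.04).

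**Figure D3:**
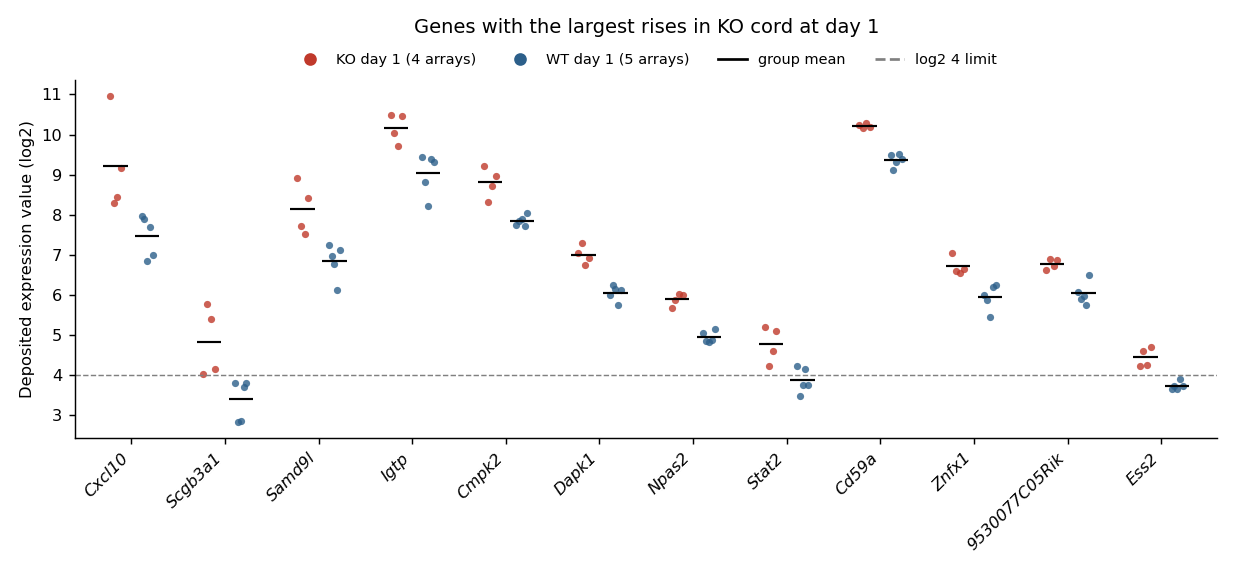
Deposited log2 values of the 12 genes with the largest rises whose arrays do not overlap, for the 4 KO arrays (red, left) and 5 WT arrays (blue, right) at day 1, with group means as bars and the background limit of 4 as a dashed line. Cxcl10 spreads from 8.29 to 10.95 in KO, while the 4 KO values of Cd59a lie between 10.16 and 10.29.

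Upstream windows of 3 of these genes hold the interferon-stimulated response element, searched on both strands as GAAA followed after any 2 bases by GAAA and set in capitals, and they are shown because the element is what interferon-activated factors read.
Cxcl10 chr5:92348890-92349139, minus strand: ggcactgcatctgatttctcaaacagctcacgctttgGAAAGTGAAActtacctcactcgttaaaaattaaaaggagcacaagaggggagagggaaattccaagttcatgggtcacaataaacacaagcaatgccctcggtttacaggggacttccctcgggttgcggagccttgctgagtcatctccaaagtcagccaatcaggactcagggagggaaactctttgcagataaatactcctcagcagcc
Igtp chr11:58199306-58199555, plus strand: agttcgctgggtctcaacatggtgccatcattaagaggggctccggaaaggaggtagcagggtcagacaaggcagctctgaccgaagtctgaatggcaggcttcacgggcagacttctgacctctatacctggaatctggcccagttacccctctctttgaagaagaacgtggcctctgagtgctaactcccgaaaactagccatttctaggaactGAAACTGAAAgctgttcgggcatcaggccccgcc
Stat2 chr10:128270248-128270497, plus strand: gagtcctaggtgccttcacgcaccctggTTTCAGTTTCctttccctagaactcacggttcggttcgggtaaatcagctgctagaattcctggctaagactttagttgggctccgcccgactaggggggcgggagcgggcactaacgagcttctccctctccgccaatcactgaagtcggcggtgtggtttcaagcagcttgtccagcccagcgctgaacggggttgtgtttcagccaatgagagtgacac
The match begins 213 bases before the start in Cxcl10 and 34 bases before it in Igtp, and lies on the other strand 222 bases before it in Stat2. The element was in 11 of 29 windows of the interferon list (37.9%), in 4 of 21 windows of the 23 higher genes (19%) and in 3.13% of the windows of all 9688 tested genes. The windows of Cmpk2, Samd9l, Cd274 and Znfx1 held no match, and the remaining match among the higher genes was in Cd59a. A match describes the letters only.

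Glucocorticoid-responsive genes had higher means in KO cord. All 19 tested genes of the list had a higher mean in KO and the median was 0.65, with 2 passing and 8 without overlap between the arrays, where 2.18% of all tested genes were higher without overlap. Ddit4, an inhibitor of the mTOR kinase, read 9.79, 10.02, 9.94 and 10.15 in KO, against 8.75, 8.84, 9.01, 8.45 and 9.93 in WT, 1.97-fold higher (adjusted p = 0.00949). Klf9, a transcription factor, read 14.12, 14.12, 13.85 and 13.95 in KO, against 13.53, 13.22, 13.18, 13.18 and 13.70 in WT, 1.57-fold higher (adjusted p = 0.0274), and passed in 3 of 9 fits. In both, WT replicate 5 lay closest to the KO arrays, and in Ddit4 it fell among them. Fam107a, a stress-induced actin regulator outside the list, also had WT replicate 5 nearest to the KO arrays, with 12.97, 12.76, 12.75 and 12.84 in KO, against 12.15, 11.89, 12.07, 11.85 and 12.64 in WT (0.71 ± 0.16, adjusted p = 0.0201). Plin4, a lipid droplet protein, had the largest difference upward of all tested genes but did not pass (2.10 ± 0.56, adjusted p = 0.0805), and neither did Sgk1 (0.99 ± 0.30, adjusted p = 0.147), Tsc22d3 (0.66 ± 0.22, adjusted p = 0.209) or Fkbp5 (0.80 ± 0.32, adjusted p = 0.362). The list averaged 10.90, 10.89, 10.64 and 10.74 in KO, against 10.12, 10.07, 9.92, 10.02 and 10.50 in WT, with every KO array above every WT array. None of its 2 calls held without KO replicate 4, and 1 held without KO replicate 1 or 2 or WT replicate 2, 3 or 4, while 4 genes passed without WT replicate 5 and 10 with array weights.

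A pair of clock genes was higher in KO cord. Npas2, a partner of BMAL1, read 5.66, 5.86, 6.02 and 5.98 in KO, against 5.05, 4.84, 4.81, 4.86 and 5.13 in WT, 1.92-fold higher with no overlap (adjusted p = 0.00243), and passed in all 9 fits. Arntl, which encodes BMAL1, read 7.31, 7.15, 7.23 and 7.53 in KO, against 7.00, 6.94, 6.69, 6.77 and 6.78 in WT, 1.39-fold higher with no overlap (adjusted p = 0.0304), and had adjusted p = 0.199 without KO replicate 4. Per3 (-0.57 ± 0.17, adjusted p = 0.144) and Dbp (-0.62 ± 0.22, adjusted p = 0.269), which the BMAL1 complex activates, did not pass. The median of the 14 clock genes was -0.04. The labels used here give no hour of collection.

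The remaining higher genes include some that were nearly constant within each genotype. Cd59a, which blocks the membrane attack complex of complement, read 10.24, 10.16, 10.29 and 10.19 in KO, against 9.50, 9.12, 9.30, 9.51 and 9.38 in WT, 1.81-fold higher (adjusted p = 1.01e-05). Dapk1, the death-associated protein kinase, read 7.04, 7.29, 6.74 and 6.92 in KO, against 6.0, 6.24, 6.14, 5.75 and 6.11 in WT, 1.93-fold higher (adjusted p = 8.82e-05). Both genes separated the groups fully. Dapk1 lies within 5 Mb of Ntrk2 and was the 1 of 62 tested genes near Ntrk2 that passed, where the median was 0.01. Scgb3a1, a secretoglobin of airway epithelium, read 4.03, 5.77, 5.38 and 4.14 in KO, against 3.80, 2.83, 2.83, 3.68 and 3.80 in WT, at least 1.78-fold higher (adjusted p = 0.00789). Gli2, a hedgehog pathway transcription factor, read 6.29, 6.58, 6.32 and 5.96 in KO, against 5.25, 5.76, 5.90, 5.31 and 5.93 in WT, 1.58-fold higher with a narrow gap between the groups (adjusted p = 0.0311).

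Lists of most other cell types and stress programs held no passing gene. None passed among 25 monocyte and macrophage genes (median -0.06), 14 neutrophil genes (0.03), 17 myelin genes (-0.10), 17 homeostatic astrocyte genes (0.04), 27 neuron genes (0.21), 23 immediate early genes (0.01), 25 unfolded protein response genes (-0.09) and 31 ribosome biogenesis genes (-0.01). In the reactive astrocyte list Cxcl10 passed alone of 24, the median was -0.15 and Gfap differed by -0.13 (adjusted p = 0.813). In the oxidative phosphorylation list 28 of 29 genes had a higher mean in KO by a median of 0.07, and in the neuron list 25 of 27, with no gene past the threshold in either. Fibroblast and matrix genes had a median of -0.49 with 18 of 21 lower in mean, and their list averaged 9.05, 8.57, 7.72 and 8.63 in KO, against 9.05, 9.15, 8.91, 8.85 and 9.12 in WT, with KO replicate 3 the lowest and the groups meeting at their top. None of the 9 tested neurotrophin genes passed, with Bdnf at 0.25 ± 0.27 (adjusted p = 0.824) and the p75 receptor gene Ngfr at 0.11 ± 0.40 (adjusted p = 0.958).

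The lower genes differed between the genotypes at day 1 and not by the same test at the other times. Of all tested genes 8 passed for KO against WT after sham surgery (0.0667%), 4 at day 3 (0.0334%) and 4 at day 7 (0.0334%), and none of these was among the 80. The median difference of the 80 was -0.08 after sham surgery, 0.31 at day 3, where 72 had a higher mean in KO, and -0.01 at day 7 (0.0073, -0.0021 and 0.0044 over all tested genes). The day 1 difference departed from that at day 3 for 103 genes of all (0.859%), among them 64 of the 80 lower and 6 of the 23 higher genes. It departed from the sham difference for 17 genes of all (0.142%), 15 of them among the 80, and from the day 7 difference for 17 (0.142%), all among the 80. Without the library labelled KO sham replicate 2, whose Ntrk2 signal goes against its label, the departures from sham numbered 28 (0.233%), 14 of them among the 80. Because the 80 were picked by their day 1 difference, which is part of these contrasts, the counts describe them and are no separate support. The Mki67 difference, the lowest of day 1, was -1.34 after sham surgery and -0.88 there without KO sham replicate 2, and passed in neither case. Npas2 departed from day 3 by 1.41 (adjusted p = 0.0016), Ddit4 by 1.18 (adjusted p = 0.036), Fam107a by 0.93 (adjusted p = 0.035) and Arntl by 0.65 (adjusted p = 0.038).

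**Figure D4:**
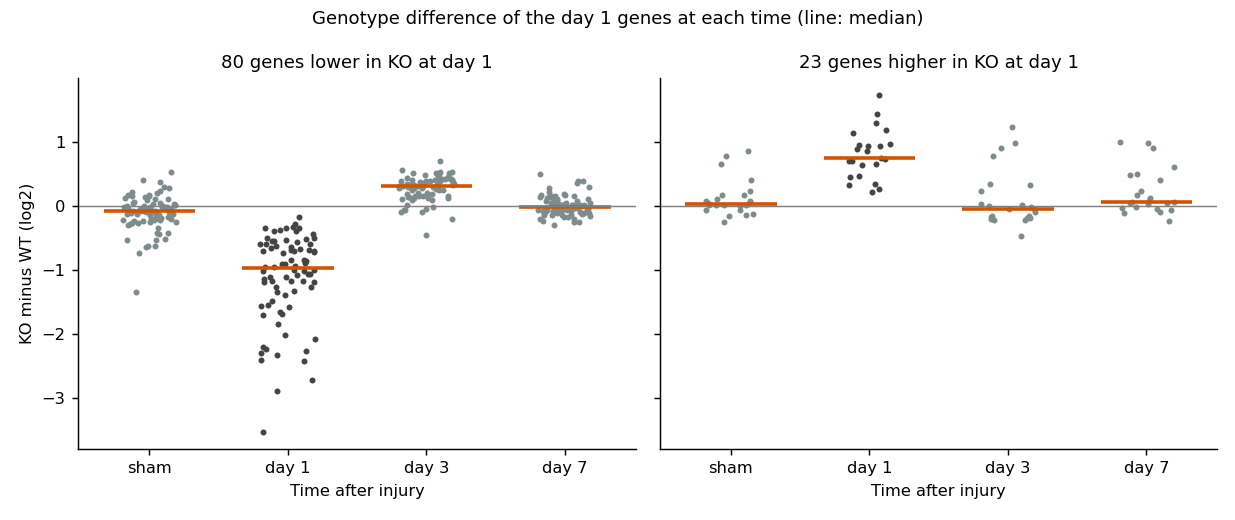
KO minus WT differences in log2 after sham surgery and at days 1, 3 and 7 for the 80 lower genes (left) and the 23 higher genes (right) of day 1, each point a gene and each orange bar a median. Medians of the lower genes are -0.08 after sham surgery, 0.31 at day 3 and -0.01 at day 7, and the day 1 points were chosen by the test.

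The 80 lower genes were also set against the sham group of each genotype. In KO cord 22 of the 80 genes passed as higher than in sham (23.7% of all tested genes were higher) and 10 as lower, with a median of 0.09. In WT cord 66 of the 80 passed as higher (27.1% of all were higher) and 3 as lower, with a median of 1.16. Over the whole cell cycle lists 70 genes were higher and 18 lower than sham in KO cord, and 136 were higher and 16 lower in WT cord. These comparisons use the day 1 arrays again, and the library labelled KO sham replicate 2 carries high Ntrk2 signal on the probe sets that are low in the other KO arrays. Without it 22 of the 80 genes were higher and 10 lower in KO cord than in sham, with a median of 0.06. The sham groups themselves were unlike in other lists. Their means of caudal Hox genes were 8.58 to 8.83 in KO and 6.70 to 7.39 in WT, and the skeletal muscle list averaged 8.94 in KO and 6.07 in WT. The part of this in the counts against sham was not tested. From sham surgery through days 1, 3 and 7, Cdk1 averaged 3.41 ± 0.32, 4.11 ± 0.26, 9.09 ± 0.38 and 7.20 ± 0.11 in KO cord (SD, n = 4, 4, 5 and 4). In WT cord it averaged 3.75 ± 0.23, 6.31 ± 0.34, 8.81 ± 0.36 and 7.11 ± 0.35 (SD, n = 4, 5, 4 and 4). Both genotypes thus peaked at day 3 in this gene. Ccnd1 averaged 9.48 ± 0.04, 11.03 ± 0.14, 11.45 ± 0.27 and 10.71 ± 0.10 in KO cord at the same times, and 9.47 ± 0.12, 11.55 ± 0.27, 11.35 ± 0.27 and 10.51 ± 0.10 in WT cord, with day 1 already at the top in WT. Fcrls was higher at day 1 than after sham surgery by 1.40 in KO cord and by 1.90 in WT cord. Npas2 differed from sham by 0.27 in KO cord and by -0.79 in WT cord, and Ddit4 by -0.12 in KO cord and by -0.92 in WT cord.

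**Figure D5:**
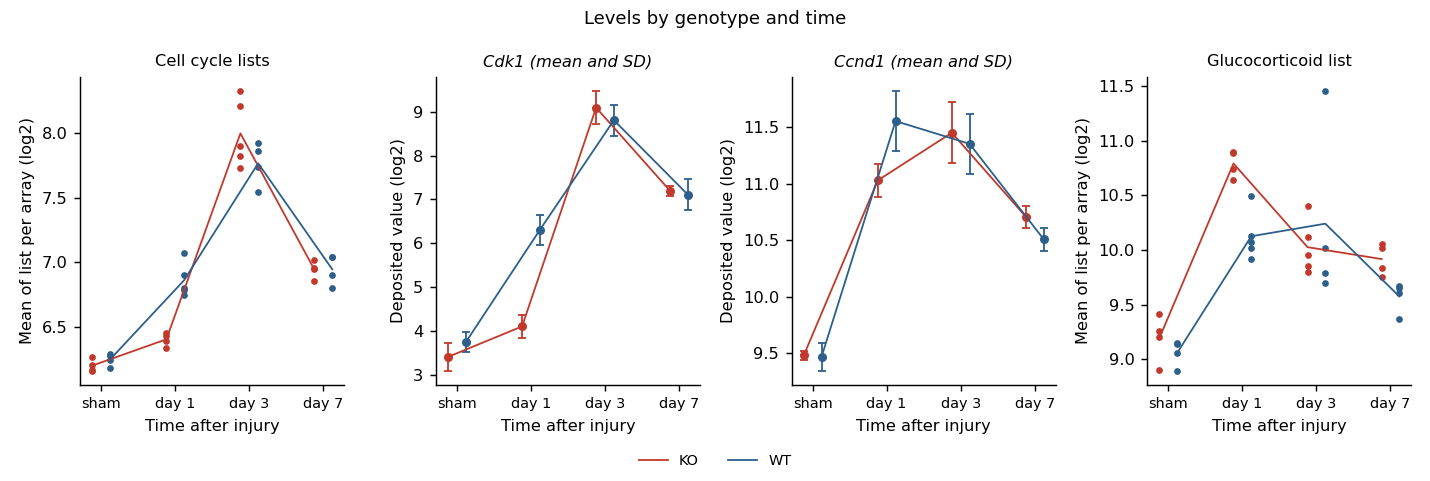
Levels in KO (red, left of each pair) and WT (blue) cord after sham surgery and at days 1, 3 and 7, as array means of the cell cycle lists and the glucocorticoid list (points, with lines through group means) and as group means with SD for Cdk1 and Ccnd1. At day 1 the cell cycle means lie between 6.34 and 6.46 in KO and between 6.75 and 7.07 in WT, and at day 3 the glucocorticoid mean of 1 WT array reaches 11.45.

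The genotype difference of the glucocorticoid list was followed over time. The list averaged 10.79 ± 0.12 in KO and 10.13 ± 0.22 in WT at day 1 (SD). Its median genotype difference was 0.17 after sham surgery, -0.18 at day 3 and 0.17 at day 7, and no list gene passed at those times. At day 7 every KO array was again above every WT array in the list mean, with 9.75 to 10.06 in KO and 9.37 to 9.67 in WT. After sham surgery and at day 3 the groups overlapped. Cd59a and Dapk1 behaved otherwise. The Cd59a difference was 0.87 after sham surgery, 0.86 at day 1, 0.91 at day 3 and 0.91 at day 7, and it passed at each time. The Dapk1 difference was 0.66 (adjusted p = 0.0765), 0.95, 0.99 and 0.997 at the same times and passed at days 1, 3 and 7, and without the KO sham library of high Ntrk2 signal it passed after sham surgery too (0.74, adjusted p = 0.0387).

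Other probe sets of the same genes were read where the array had them. For 40 of the 103 genes there were 61 further probe sets on test, 59 with the same direction, of which 19 passed, and none passed the other way. Further probe sets of Ccna2 (-1.76), Cdca8 (-1.98), Rrm2 (-2.60) and Cd59a (0.95) passed. Further probe sets of Top2a (-0.34, adjusted p = 0.784), Hells (-0.01, adjusted p = 0.989) and Cdca5 (-0.22, adjusted p = 0.883) did not pass, at mean signals of 3.86, 5.58 and 3.21. At higher signal, further probe sets of Nedd4 (-0.07, adjusted p = 0.862) and Hif1a (-0.13, adjusted p = 0.794) did not pass either. Their mean signals were 11.1 and 9.42. Another probe set of each was lower by 0.33 and also did not pass (adjusted p = 0.446 for Nedd4 and 0.412 for Hif1a).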

How the data were processed

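Spinal cord RNA was extracted with Trizol and hybridised as biotinylated cRNA to Affymetrix arrays of 45101 probe sets, per the labels' protocols. The values are log2 probe set summaries that the authors made with GCRMA and deposited, per the submitters' processing notes. They were used as deposited, from 2.17 to 15.9, and 24.6% to 25.4% of the probe sets of a day 1 array sat at the floor. Of the probe sets 34945 had 1 gene symbol, 932 several and 9160 none, and 64 were controls. Symbols of 34741 were updated by Entrez ID. Of 18193 genes 11993 were tested and 6200 left out. All 34 arrays were fitted with 1 mean per group with lmFit and eBayes of limma 3.58.1 (R 4.3.3), tested on simulated data, with p-values adjusted by the Benjamini-Hochberg method over all tested genes. A fold was computed with values under 4 set to 4 where a group lay under 4 on every array, and written as "at least". The p-values beside these folds come from the values as deposited. No array equalled another.

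The 57 gene lists (951 entries tested of 1165) and the members were chosen with earlier results of these data known. Genes named by rule were the 12 largest rises and falls without overlap, with and without the cell cycle lists, up to 4 passing members per list or its smallest p, a fixed set of 11 genes, and passing genes near Ntrk2. Other genes named were chosen after their values were seen. The number of arrays limits the precision.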

Additional observations from a re-analysis of the deposited data

Results flagged for a closer look

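In single genes and list means 21 arrays lay apart from the rest of their group by Dixon's test, out of 340 groups checked, and chance flags about 1 in 20 groups. Among cell cycle genes WT replicate 4 was the highest of its group for Cdca8 (6.56, others 5.46 to 5.67) and Ncapg2 (8.32, others 7.68 to 7.76), and in the list means of cyclins (7.86, others 7.50 to 7.59) and of spindle and cytokinesis genes (5.30, others 4.82 to 4.95). WT replicate 3 was the lowest for Cks2 (6.97). KO replicate 2 was the highest for Cdkn2c (4.48) and Cenpa (3.47), KO replicate 4 the highest for Esco2 (2.83) and the lowest for the list of chromatin and proliferation genes (8.32, others 8.53 to 8.55). Outside the cell cycle, KO replicate 1 was the lowest for the highest Ntrk2 probe set (10.44), for Bex3 (11.3) and for the neuron list (10.96, others 11.22 to 11.27). KO replicate 3 was the lowest for the endothelial list (7.42) and for the Wnt and Notch list (6.66) and the highest for Ngfr (5.59). KO replicate 4 was the lowest for Sc5d (10.6). Among WT arrays, replicate 2 was the highest for the skeletal muscle list (7.71, others 3.45 to 4.63), replicate 3 for Chac1 (5.95) and replicate 4 for Ess2 (3.89), while replicate 4 was the lowest for Bdnf (6.91) and replicate 5 for Ngfr (5.02).

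For 53 of the 112 named genes the genotype difference at day 1 departed from that at another time by the test of the difference itself. The time with the smallest adjusted p is given. Over all tested genes 0.859% departed from day 3, 0.142% from sham surgery and 0.142% from day 7. Many named genes were picked by their day 1 difference, which is part of these contrasts. The count thus describes them and is no separate support. Against day 3, the log2 difference at day 1 minus that at day 3 was below 0 for the cell cycle genes Birc5 (-2.80), Bub1 (-2.59), Ccna2 (-2.77), Ccne2 (-1.60), Cdc6 (-1.79), Cdca5 (-2.64), Cdca8 (-2.30), Cdk1 (-2.48), Cdkn2c (-1.13), Cenpa (-1.26), Cenpi (-1.62), Cenpk (-1.57), Cep55 (-2.74), Cks1b (-1.0), Cks2 (-1.09), Dut (-0.55), Ect2 (-1.95), Esco2 (-1.77), Fbxo5 (-1.72), Gmnn (-0.88), Hells (-1.41), Kif23 (-1.66), Mcm5 (-1.34), Mcm7 (-0.91), Mki67 (-3.97), Ncapg2 (-1.20), Nusap1 (-1.94), Pbk (-3.16), Pclaf (-2.59), Rbl1 (-1.42), Rrm1 (-0.94), Rrm2 (-2.79), Smc2 (-0.96), Smc4 (-0.94), Spc25 (-2.11), Top2a (-3.29), Topbp1 (-0.59), Ube2c (-2.08) and Uhrf1 (-1.80). Outside the cell cycle lists it was below 0 for Shcbp1 (-2.11), Fignl1 (-1.82), Ptgr1 (-1.44), D17H6S56E-5 (-1.41), Atad2 (-1.38), Mamdc2 (-1.37), Fcrls (-1.31), Zwilch (-1.22) and Hif1a (-0.39), and above 0 for Arntl (0.65), Mfsd2a (0.81), Ddit4 (1.18) and Npas2 (1.41). Galm departed from the sham difference (-1.49). Of these genes Esco2, Galm and Kif23 were under 4 on all 9 day 1 arrays, and Bub1, Cdca5, Cenpa, Cenpi, Cep55, Mamdc2, Nusap1, Spc25 and Ube2c on every KO array, so their values are as deposited, near background, and have no measured size or order. No cause of these departures was tested.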

How the results depend on the processing

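Alternative settings changed how many genes passed more often than their direction. The passing genes were picked on these same arrays, so a kept direction is no separate support. Without any 1 day 1 array, the count of higher genes ranged from 9 to 39, that of lower genes from 39 to 92 and that of lower cell cycle genes from 28 to 53. The second Ntrk2 probe set differed by -6.33 to -6.01 in the same fits, while the first sat at the floor of 2.83 on all KO arrays and has only a bound. A fit of the 9 day 1 arrays alone gave 14 higher and 51 lower genes and kept 47 of the 103 calls, and array weights gave 119 and 191. Leaving out both replicates 2, an alternative chosen after seeing the data, gave 12 and 46. The labels do not say whether same-numbered arrays of the genotypes share more than a number. Correlations between their deviations were 0.25, 0.31, 0.35 and -0.13, and not every array correlated best with its own number. With that number as a replicate block 53 genes were higher and 113 lower. The block also gave 2 positive departures of the day 1 difference from sham, 110 positive and 232 negative ones from day 3, and 2 positive ones from day 7, where the fit without it gave none, 18, 85 and none. With values under 4 set to 4, 32 genes were higher and 69 lower at day 1, 42 of the lower in the cell cycle lists. Of the 103 calls 89 were kept and 100 kept their direction, while 3 were under 4 on all day 1 arrays. With the mean of all probe sets 24 genes were higher and 78 lower, 43 of the lower in the cell cycle lists. Of the 95 calls tested there 76 were kept. Setting values under 4 to 4 also gave 6 positive departures from sham and 2 from day 7. Without KO sham replicate 2, also chosen after seeing the data, there were 3 positive and 25 negative ones from sham, against none and 17. Directions reversed in 4 cases: Ntrk2 to -1.32 as the mean of all its probe sets (adjusted p = 5.95e-05), where the 2 probe sets low in KO enter the mean, Snap25 to -0.019 with the mean of caudal Hox genes as a covariate, Mbp to 0.0021 without WT replicate 1 (from -0.037 to 0.0021 over the fits without 1 array) and Rps9 to 0.026 without both replicates 2. For the last 3 the cause was not tested. The remaining planned settings, namely no filter, a filter at log2 6, centring on array medians and eBayes with trend and robust, kept both counts within 1.5 times. Signals near background limit the size of falls, and a gene left out by the filter is not shown to be unexpressed.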
